A study of Mus musculus with 5 samples.

Results

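The smooth muscle contractile genes Myh11, Acta2, Cnn1, Tagln, Des, Actg2, Lmod1, Smtn, Synpo2 and Myocd were followed in prostate tumors of TripleTg mice by bulk RNA-seq. The 10 genes were chosen by symbol, with earlier results of these data known, and are 10 of the 24527 genes in the deposited count table. All of them were among the 14612 genes with a CPM (read counts scaled to library size) above 1 in at least 2 samples, which were tested. The study compared prostate cancer tissue of 3 castrated mice with that of 2 intact mice to examine the effect of castration on tumor transcriptomes. Both groups carried hHGFtg, H11hMET/+, Ctnnb1L(Ex3)/+ and PBCre4, and were of mixed C57BL/6 and C3H SCID background. The human HGF transgene is expressed ubiquitously, whereas human MET and stabilized β-catenin are switched on in prostate epithelium by PBCre4, a Cre driven by the promoter of probasin. Castration was at 4 months and tissue was collected at 8 months of age, and the intact mice were matched for age and genotype.

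In smooth muscle, thick filaments of myosin pull on thin filaments of actin that are anchored in dense bodies, and phosphorylation of the myosin light chain starts the contraction. The genes of this apparatus are switched on by serum response factor (SRF), which binds the CArG box, together with its coactivator myocardin. In the prostate, smooth muscle sheathes the glands and lines blood vessels, and Acta2 and Tagln are also made by activated fibroblasts, pericytes and myoepithelial cells. In bulk tissue, fewer cells of a type and less RNA per cell cannot be told apart.

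RefSeq promoter sequences (GRCm38.p6) were matched for 6 of the 10 genes, namely Acta2, Cnn1, Des, Lmod1, Smtn and Synpo2. The window ran from 250 bases before to 50 bases after the start, and both strands were searched. An exact CArG box was found in 0 of these 6 promoters and in 1.63% of 32851 promoters in all. With at most 1 mismatch in the core of the motif, 1 of the 6 promoters held a match, that of Acta2, against 9.98% of all promoters. The letters TATAAA were found in 1 of the 6, that of Synpo2, against 13.6% of all. These matches are letters in a window and were not tested as binding sites. The 250 bases before the start of Acta2 (chr19:34255374-34255623, minus strand) are shown because they hold both near matches, written in capitals. The first, CCCTATATGG, spans bases -84 to -75 and the second, CCTTGTTTGG, bases -34 to -25, counted from -1 at the base before the start.
Acta2: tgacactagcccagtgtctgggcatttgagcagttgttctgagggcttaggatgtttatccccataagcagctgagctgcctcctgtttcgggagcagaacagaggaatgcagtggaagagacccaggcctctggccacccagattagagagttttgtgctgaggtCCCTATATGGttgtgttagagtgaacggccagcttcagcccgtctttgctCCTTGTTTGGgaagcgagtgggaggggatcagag

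Between 18951782 and 28015507 counts were summed per sample, the fewest in castrated replicate 2 and the most in castrated replicate 1. Counting error was small beside the spread between animals for all but genes of few counts, as edgeR estimated a common dispersion of 0.238. The intact samples differed in their prostate markers. Tgm4, a transglutaminase secreted by the prostate, had 28976 counts in intact replicate 2, 5 in intact replicate 1 and between 1 and 12 in castrated samples. Probasin (Pbsn) had 112 counts in intact replicate 2 and between 0 and 13 in the other samples. The secretory markers of prostate were thus at or near 0 in intact replicate 1 and the castrated samples, whereas the epithelial keratin Krt8 lay between 661 and 1155 CPM in the 5 samples. Results on the contractile genes as a set are therefore also given without intact replicate 1 and without intact replicate 2.

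The contractile transcripts had higher levels in the castrated than in the intact tumors. All 10 genes had a positive log2 fold change (castrated against intact), which was above 1 for 9 of them. The median log2 fold change of the 10 genes was 2.34, against -0.03 over all genes tested. Summed over the 10 genes, the normalized CPM was 431, 775 and 733 in castrated replicates 1 to 3, and 254 and 165 in intact replicates 1 and 2. The lowest castrated sample, replicate 1, thus lay above the higher intact sample. In this sample 9 of the 10 genes lay above both intact samples, by 1.35-fold (Tagln) to 4.68-fold (Cnn1) over the higher intact value.

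For 9 of the 10 genes, all but Smtn, every castrated sample lay above both intact samples, which held for 17.0% of all genes tested. Of these 9, Myocd was tested only because castrated samples passed the CPM limit. Values below both intact samples in every castrated sample were found for 0 of the 10 and for 16.1% of all genes. At an unadjusted p under 0.05 in edgeR's quasi-likelihood test, 8 of the 10 genes were higher, against 8.74% of all genes, and 0 were lower, against 6.28% of all genes. With Benjamini-Hochberg adjustment over all genes, edgeR's quasi-likelihood test called 0 of the 10, and it called 0% of all genes, the smallest adjusted p being 0.289. DESeq2 called 7 of the 10 as higher, against 4.81% of all genes, and did not call Tagln, Smtn and Myocd. DESeq2 called 989 genes in all and edgeR's likelihood ratio test 369, of which 6 were contractile genes. The median log2 fold change of the 10 genes was 2.90 without intact replicate 1. Without intact replicate 2 it was 1.98, and every castrated sample lay above the remaining intact sample for 9 of the 10 genes and for 33.0% of all genes. In that setting 6 of the 10 and 7.47% of all genes were higher at an unadjusted p under 0.05, with the lone intact sample assumed to vary like the castrated ones.

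**Figure D1:**
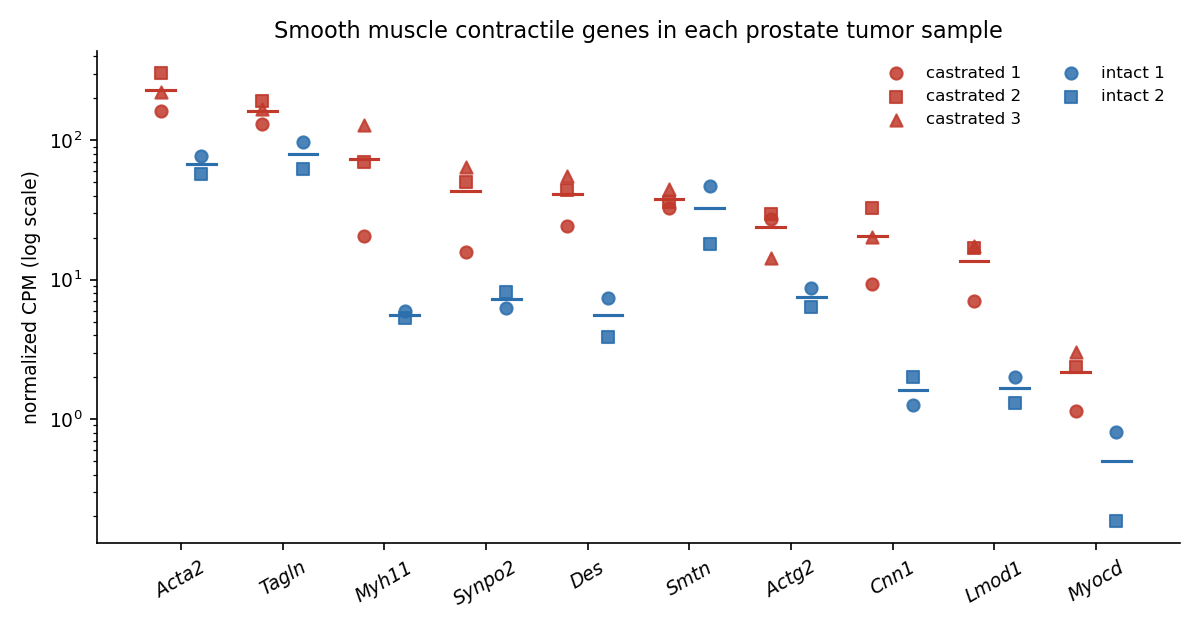
Normalized CPM (log scale) of the 10 contractile genes in each sample, with castrated samples in red, intact samples in blue, a marker shape for each replicate number and a bar at the group mean. Every castrated sample lies above both intact samples for 9 of the 10 genes, and the groups overlap for Smtn.

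Of the actins, Acta2 encodes the smooth muscle α-actin of vessels and of activated stroma, and Actg2 the γ-actin typical of visceral smooth muscle. Acta2 (chr19:34240336-34255373, minus strand, mm10) had normalized CPM of 162, 303 and 221 in castrated replicates 1 to 3, and 77.1 and 57.5 in intact replicates 1 and 2. All castrated samples lay above both intact samples, and replicate 2 was the highest. The means were 228 ± 70.8 (SD, n = 3) and 67.3 ± 13.8 (SD, n = 2). The log2 fold change of Acta2 was 1.76 with a standard error (SE) of 0.34 and a 95% interval from 0.90 to 2.62, and its adjusted p in edgeR's quasi-likelihood test was 0.289. Actg2 (chr6:83512909-83536251, minus strand) had 27.2, 29.5 and 14.3 CPM in castrated replicates 1 to 3, and 8.69 and 6.37 CPM in intact replicates 1 and 2. Here castrated replicate 3 was the lowest of the castrated samples, although still above both intact ones. The log2 fold change of Actg2 was 1.65 (SE 0.42, 95% interval 0.58 to 2.72; edgeR's quasi-likelihood test, adjusted p = 0.290).

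Myh11 encodes the smooth muscle myosin heavy chain, the motor of the thick filament and a strict marker of differentiated smooth muscle. Myh11 (chr16:14194527-14291408, minus strand) had 20.4, 70.0 and 128 CPM in castrated replicates 1 to 3, and 5.92 and 5.30 CPM in intact replicates 1 and 2. The intact samples were close to each other, whereas the castrated samples spanned a 6.27-fold range, the widest of the 10 genes. The means were 72.8 ± 53.8 CPM (SD, n = 3) after castration and 5.61 ± 0.436 CPM (SD, n = 2) without it, and the log2 fold change was 3.70. Without castrated replicate 3 it was 3.02, below the 3.69 of Cnn1. The SE was 0.84, the 95% interval ran from 1.57 to 5.82, and edgeR's quasi-likelihood test gave an unadjusted p of 0.00615 and an adjusted p of 0.289.

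Calponin 1, transgelin and leiomodin 1 act on the thin filament. Cnn1 (chr9:22099253-22109221, plus strand) encodes calponin, which binds actin and slows the myosin ATPase, and had 9.35, 32.5 and 20.2 CPM in castrated replicates 1 to 3 against 1.26 and 1.999 CPM in intact replicates 1 and 2. Its lowest castrated value was 4.68 times its highest intact value. The log2 fold change was 3.66 (SE 0.68, 95% interval 1.94 to 5.38; edgeR's quasi-likelihood test, adjusted p = 0.289), next to that of Myh11. Lmod1 (chr1:135324813-135368065, plus strand) encodes an actin filament nucleator of smooth muscle. It had 6.98, 16.7 and 17.3 CPM in castrated replicates 1 to 3, and 2.02 and 1.30 CPM in intact replicates 1 and 2. No sample of one group reached the other, and the log2 fold change was 3.04 (SE 0.58, 95% interval 1.56 to 4.51; edgeR's quasi-likelihood test, adjusted p = 0.289).

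Tagln (chr9:45929628-45936058, minus strand) encodes transgelin, an actin cross-linker that appears early in smooth muscle differentiation. It had 131, 192 and 166 CPM in castrated replicates 1 to 3, and 97.3 and 62.6 CPM in intact replicates 1 and 2. The gap between the groups was narrow, as castrated replicate 1 had 1.35 times the level of intact replicate 1. The log2 fold change of 1.03 (SE 0.29, 95% interval 0.30 to 1.76) had an adjusted p of 0.290 in edgeR's quasi-likelihood test. It fell below 1 without intact replicate 2, to 0.70, and without castrated replicate 2, to 0.90. In the GENCODE M21 annotation, 62.4% of the exonic bases of Tagln are shared with the antisense gene Gm48529 on the opposite strand. Whether reads were counted by strand is not given in the sources used here, so reads of Tagln and of its antisense partner cannot be told apart.

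**Figure D2:**
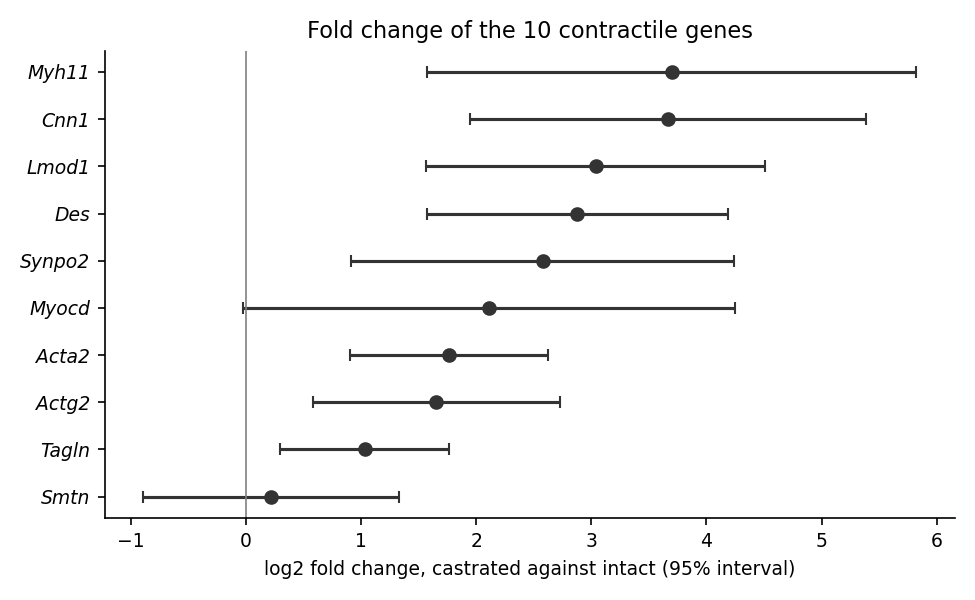
Log2 fold change of the 10 contractile genes, castrated against intact (points), with the 95% interval from edgeR's quasi-likelihood fit (bars). The intervals of Smtn and Myocd include 0, and the points of Myh11 and Cnn1 lie close together at the upper end.

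Desmin, synaptopodin 2 and smoothelin belong to the cytoskeleton that holds the filaments in place. Des (chr1:75360292-75368579, plus strand), the intermediate filament of muscle cells, had 24.4, 44.1 and 55.3 CPM in castrated replicates 1 to 3, and 7.35 and 3.86 CPM in intact replicates 1 and 2. Its log2 fold change was 2.88 (SE 0.52, 95% interval 1.57 to 4.18; edgeR's quasi-likelihood test, unadjusted p = 0.00212, adjusted p = 0.289), the lowest unadjusted p of the 10 genes. Opposite-strand transcripts of Gm15179 share 5.86% of the exonic bases of Des. Synpo2 (chr3:123076519-123236149, minus strand) encodes an actin-bundling protein also known as myopodin. It had 15.7, 49.8 and 63.8 CPM in castrated replicates 1 to 3, and 6.27 and 8.18 CPM in intact replicates 1 and 2. Castrated replicate 1 stood nearer to the intact samples than to the other castrated samples, and the log2 fold change was 2.58 (SE 0.66, 95% interval 0.91 to 4.24; edgeR's quasi-likelihood test, adjusted p = 0.290).

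Smtn (chr11:3517522-3539292, minus strand), which encodes the actin-binding protein smoothelin of contractile smooth muscle, differed from the other genes. It had 32.6, 36.0 and 44.6 CPM in castrated replicates 1 to 3, and 47.0 and 17.9 CPM in intact replicates 1 and 2. The castrated values lay between both intact values, and 0 of 3 castrated samples exceeded intact replicate 1. The log2 fold change was 0.22 (SE 0.44, 95% interval -0.89 to 1.33; edgeR's quasi-likelihood test, adjusted p = 0.843). Without intact replicate 2 the log2 fold change was -0.36, and without intact replicate 1 it was 1.09. Opposite-strand transcripts of Gm11946 share 16.3% of the exonic bases of Smtn. A test of Smtn against the other 9 genes was not run.

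Myocd (chr11:65176571-65269989, minus strand), the gene of the coactivator myocardin, was the least abundant of the 10 genes. It had 33, 44 and 62 counts in castrated replicates 1 to 3, and 18 and 4 counts in intact replicates 1 and 2. As normalized CPM these were 1.15, 2.36 and 3.02 after castration, and 0.807 and 0.186 in intact samples, so that the groups did not overlap. With both intact values below 1 CPM, Myocd was tested only because castrated samples passed the CPM limit. The log2 fold change was 2.11 (SE 0.84, 95% interval -0.03 to 4.25), with an unadjusted p of 0.0520 and an adjusted p of 0.337 in edgeR's quasi-likelihood test. It was 1.38 without intact replicate 2 and 3.52 without intact replicate 1.

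To compare levels between genes, counts were scaled per length to TPM (transcript share corrected for gene length). In castrated samples the mean TPM was 242 ± 46.0 for Tagln and 209 ± 66.1 for Acta2 (SD, n = 3), and their ranges overlapped. The next genes lay well below Acta2, with mean TPM of 42.6 for Actg2, 31.6 for Des, 25.8 for Myh11, 25.1 for Smtn and 24.5 for Cnn1, and neighbours in this order overlapped between samples. Synpo2 at 14.2 TPM and Lmod1 at 8.13 TPM followed, and also overlapped with each other. Myocd, at 0.999 TPM, lay below all values of the other genes. In intact samples Tagln at 113 TPM and Acta2 at 58.0 TPM again led and overlapped, followed by Smtn at 21.2 and Actg2 at 12.7 TPM. Des had 4.14, Synpo2 2.16, Myh11 1.85, Cnn1 1.72, Lmod1 0.938 and Myocd 0.229 mean TPM in intact samples. Smtn had rank 3 in the intact and rank 6 in the castrated samples, and Myh11 rank 7 and rank 5.

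The make-up of the contractile transcripts differed between samples as well as their amount. Tagln made up 42.3%, 37.3% and 38.1% of the summed TPM of the 10 genes in castrated replicates 1 to 3, and 52.6% and 51.7% in intact replicates 1 and 2. Myh11 made up 1.58%, 3.27% and 7.02% in the castrated and 0.767% and 1.05% in the intact samples. Both shares were without overlap between the groups, that of Tagln being lower and that of Myh11 higher after castration. The ratios that follow were chosen after the values were seen and were not tested. The ratio of Myh11 to Acta2 TPM was 0.0491, 0.0899 and 0.226 in castrated replicates 1 to 3, against 0.0298 and 0.0358 in intact replicates 1 and 2. Cnn1 relative to Tagln was 0.0569, 0.135 and 0.0970 in castrated and 0.0103 and 0.0255 in intact samples. Actg2 relative to Acta2, visceral over vascular type actin, overlapped between groups, with ratios of 0.330, 0.191 and 0.127 in castrated and 0.221 and 0.217 in intact samples. Actg2 relative to Myh11 was 6.72 in castrated replicate 1, within the intact values of 7.42 and 6.06, but 2.13 and 0.565 in castrated replicates 2 and 3. Castrated replicate 3 therefore had the most Myh11 and the least Actg2 of the castrated samples.

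**Figure D3:**
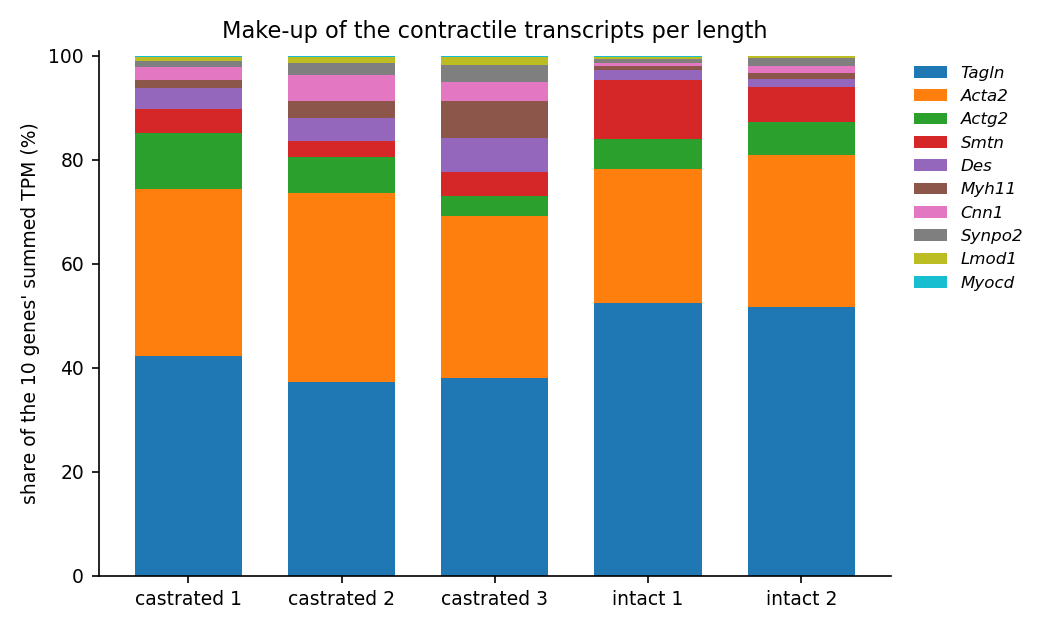
Share of each contractile gene in the summed TPM of the 10 genes (percent, stacked to 100) in every sample. Tagln takes 51.7% or more in intact and 42.3% or less in castrated samples, and Myh11 reaches 7.02% in castrated replicate 3.

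A wider set of 60 genes of smooth muscle contraction was grouped by role, and 56 of them were tested. In edgeR's quasi-likelihood fit, 39 had a higher and 17 a lower mean after castration, with a median log2 fold change of 0.37. At an unadjusted p under 0.05, 14 of 56 were higher and 0 were lower, and 20 of 56 (35.7%) lay above both intact samples in every castrated sample, compared with the 8.74% and 17.0% of all genes. Without castrated replicate 3, 9 of the contraction genes and 4.42% of all genes were higher at an unadjusted p under 0.05. None of the 56 was called after adjustment by edgeR's quasi-likelihood test. The 14 genes include Myl9, Tpm2, Pdlim3, Fhl1, Synm, Gucy1a1, Mylk, Prkg1, Casq2, Adra1d, P2rx1, Agtr1a and Ednra. Apart from Ednra, these were named after their values were seen. Pdlim3 was below 1 CPM in intact replicate 1, and Casq2, P2rx1, Agtr1a and Adra1d were below 1 CPM in both intact samples. They were tested only because castrated samples passed the CPM limit. The counts of 14 and 20 therefore lean in part on genes kept for their castrated values.

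Among filaments and light chains, 2 of 6 genes had an unadjusted p under 0.05, and the median log2 fold change was 0.45. Myl9, the regulatory light chain of smooth muscle myosin, had 36.0, 56.0 and 57.0 CPM in castrated replicates 1 to 3, and 11.4 and 13.4 CPM in intact replicates 1 and 2. Its level was 4.01-fold higher (SE 0.30 on the log2 scale; edgeR's quasi-likelihood test, unadjusted p = 0.000955, adjusted p = 0.289), and the castrated samples spanned a 1.58-fold range. Tpm2, the β-tropomyosin of the thin filament, had a log2 fold change of 1.09 (SE 0.29). The 3 genes of the group with the highest mean over the 5 samples, which are also made by other cells, had log2 fold changes of 0.01 for the light chain Myl6, -0.04 for the tropomyosin Tpm1 and 0.44 for the caldesmon Cald1.

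Of the dense body and adhesion genes, 4 of 14 had an unadjusted p under 0.05, and the median was 0.63. The largest value was that of Pdlim3, an actinin-binding protein, with 4.47, 12.1 and 15.7 CPM in castrated replicates 1 to 3, and 0.851 and 1.72 CPM in intact replicates 1 and 2. No overlap was seen, and the log2 fold change was 3.06 (SE 0.73). With intact replicate 1 below 1 CPM, Pdlim3 was tested only because castrated samples passed the CPM limit. The LIM protein gene Fhl1 had a log2 fold change of 2.17 (SE 0.50) and the intermediate filament gene Synm, which pairs with desmin, one of 1.20. The abundant cytoskeletal genes Flna (filamin A), Actn1 (actinin 1) and Lpp had log2 fold changes of 0.35, -0.04 and 0.17.

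The enzymes that switch contraction on and off gave 3 of 12 genes with an unadjusted p under 0.05, and a median of 0.29. Mylk, the kinase of the myosin light chain, had 59.6, 89.7 and 165 CPM in castrated replicates 1 to 3, and 30.5 and 39.3 CPM in intact replicates 1 and 2. The castrated samples lay above both intact samples, with a log2 fold change of 1.59 (SE 0.48). On the relaxing side, Gucy1a1, a subunit of the nitric oxide receptor, had a log2 fold change of 2.44 (SE 0.65) and the cGMP-dependent kinase Prkg1 one of 0.89 (SE 0.35). The small GTPase Rhoa and the kinases Rock1 and Rock2 had log2 fold changes of 0.18, -0.02 and -0.48, and Rock2 was the only one of the 56 genes that lay below both intact samples in every castrated sample.

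Ion channels and calcium handling genes were divided in direction, as 3 of 7 tested had a higher mean, 1 of them with an unadjusted p under 0.05, and the median was -0.05. That gene, Casq2, a calcium-binding protein of the sarcoplasmic reticulum, had a log2 fold change of 1.64 (SE 0.55). Casq2 was below 1 CPM in both intact samples and was tested only because castrated samples passed the CPM limit. The calcium pump gene Atp2a2, the IP3 receptor Itpr1 and the potassium channel Kcnma1 had log2 fold changes of -0.24, -1.35 and -1.12. Intact replicate 2 stood out for Itpr1, with 320 CPM against 44.4 to 103 CPM in the other samples, and for Kcnma1, with 107 CPM against 17.0 to 29.96 CPM.

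The receptors that signal contraction had the highest median of the 6 groups, 1.87, and 4 of 9 tested genes had an unadjusted p under 0.05. Ednra, the endothelin receptor of smooth muscle, had 51.5, 71.2 and 124 CPM in castrated replicates 1 to 3, and 26.3 and 18.6 CPM in intact replicates 1 and 2, a log2 fold change of 1.87 (SE 0.45). Each of the other receptors at an unadjusted p under 0.05, P2rx1, Agtr1a and Adra1d, had fewer counts than Ednra. These were below 1 CPM in both intact samples and were tested only because castrated samples passed the CPM limit. The count and median of this group therefore lean on genes kept for their castrated values. P2rx1, an ATP-gated channel, had 57, 38 and 34 counts in the castrated samples and 5 and 8 in the intact ones, a log2 fold change of 2.65 (SE 0.59). The angiotensin receptor Agtr1a had a log2 fold change of 2.62 (SE 0.72) and the adrenergic receptor Adra1d one of 2.97 (SE 1.07). Adra1a, the adrenergic receptor that mediates much of prostate contraction, was chosen after its values were seen, and had 3, 67 and 81 counts in castrated replicates 1 to 3, and 7 and 0 in intact replicates 1 and 2. Castrated replicate 1 was therefore within the intact values, and edgeR's quasi-likelihood test gave an unadjusted p of 0.0798 and an adjusted p of 0.375. For Ednrb and the muscarinic receptor Chrm3 the log2 fold changes were 0.17 and -1.36, with overlapping groups.

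**Figure D4:**
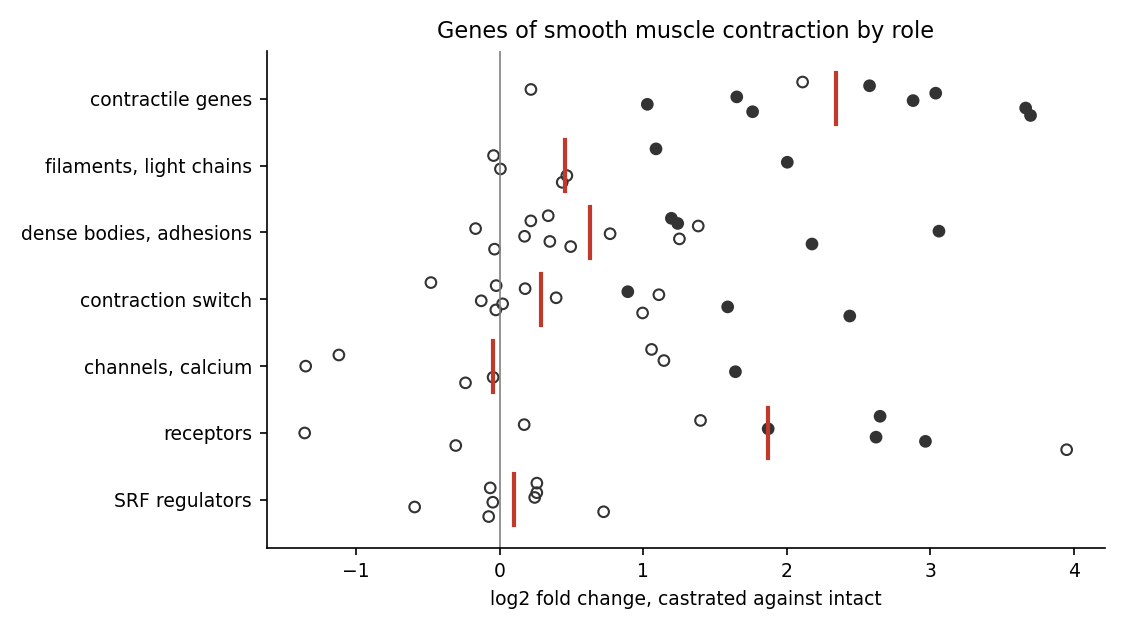
Log2 fold change, castrated against intact, for the 10 contractile genes and for 6 groups of other contraction genes. Points are genes, filled where the unadjusted p of edgeR's quasi-likelihood test was under 0.05, and red bars mark the group median, which runs from -0.05 for channels to 2.34 for the 10 contractile genes.

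Myocd aside, the upstream regulators of the contractile genes gave 0 of 8 at an unadjusted p under 0.05 in edgeR's quasi-likelihood test. Their median log2 fold change was 0.10. Myocd, counted above among the contractile genes, had a log2 fold change of 2.11 and an unadjusted p of 0.0520 in the same test. Every castrated sample lay above both intact samples for Myocd, which was below 1 CPM in both intact samples. Mrtfb and Mrtfa, SRF coactivators related to myocardin, had log2 fold changes of 0.26 and 0.24, and Klf4, which represses contractile genes, one of -0.05. Srf itself, named after its values were seen, had a log2 fold change of -0.07. The immediate-early targets of SRF gave 0 of 6 at an unadjusted p under 0.05 and a median of 0.09, with log2 fold changes of 0.01 for Junb, -0.34 for Egr1 and -0.05 for Ier2. Cytoskeletal genes of non-muscle cells also gave 0 of 6 and a median of 0.34, with log2 fold changes of 0.41 for Actb, -0.15 for Actg1 and 0.27 for Myh9. Acta2 relative to Actb, as a TPM ratio, was 0.0481, 0.0729 and 0.0680 in castrated replicates 1 to 3, and 0.0245 and 0.0255 in intact replicates 1 and 2, without overlap.

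Of 16 markers of striated muscle, 10 had fewer than 10 counts in every sample, and Myod1, Myog, Myh1 and Myh6 had 0 counts in all 5. Tnnt2, a troponin gene, was the most abundant, with 9.39, 5.42 and 3.12 CPM in castrated replicates 1 to 3, and 15.3 and 9.11 CPM in intact replicates 1 and 2. The 3 that were tested, Tnnt2, Mylpf and Mb, had lower means after castration, and their list summed to 13.2, 10.4 and 10.2 CPM in castrated replicates 1 to 3 against 18.3 and 15.1 CPM in intact replicates 1 and 2.

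Markers of several other cell types were also higher in castrated samples, and their part in the result was not tested. Of 11 adipocyte markers, 7 had an unadjusted p under 0.05 in edgeR's quasi-likelihood test, all higher. The list summed to 181, 720 and 716 CPM in castrated replicates 1 to 3, and 177 and 159 CPM in intact replicates 1 and 2. Pnpla2 had the highest mean over the 5 samples, and was below Acsl1 and Cfd in castrated replicates 2 and 3. Adiponectin (Adipoq), chosen after its values were seen, had 15, 1282 and 1402 counts in castrated replicates 1 to 3, and 0 and 2 counts in intact replicates 1 and 2. Cfd had 0 counts in both intact samples. Cfd and Adipoq were tested only because castrated samples passed the CPM limit. The adipocyte count of 7 therefore leans in part on genes kept for their castrated values. Of 8 fibroblast markers 5 were higher at an unadjusted p under 0.05, with a median log2 fold change of 1.40 and sums of 4927, 5901 and 7943 CPM in the castrated and 4330 and 2666 CPM in the intact samples. Dcn (decorin), the most abundant fibroblast gene in castrated replicates 2 and 3 but below Col3a1 in the other samples, had a log2 fold change of 2.35 (SE 0.69), whereas the collagens Col3a1 and Col1a2 had 0.09 and 0.01. All 6 macrophage markers were higher at an unadjusted p under 0.05, with sums of 650, 1873 and 1026 CPM in the castrated and 380 and 399 CPM in the intact samples. Cd68 led this list in castrated replicates 2 and 3, and C1qa was above it in the other samples.

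Of 7 tested pericyte markers, all had a higher mean but 1 had an unadjusted p under 0.05, with a median log2 fold change of 0.56. The list summed to 623, 358 and 402 CPM in castrated replicates 1 to 3, and 336 and 254 CPM in intact replicates 1 and 2. Every castrated sum thus lay above both intact sums. The pericyte gene with the highest mean over the 5 samples, Rgs5, had 308, 105 and 129 CPM in castrated replicates 1 to 3, and 90.7 and 155 CPM in intact replicates 1 and 2, so that castrated replicate 1, the lowest of the castrated samples for Myh11, was the highest for Rgs5. Endothelial markers had a median of 0.57 with 2 of 7 at an unadjusted p under 0.05, and sums that overlapped between groups. Myofibroblast markers, of which Acta2 is one, had a median of 0.28, with log2 fold changes of 0.69 for Postn and 0.28 for Tnc, and of -0.06 for Fap and -1.19 for Cthrc1, the last pair named after their values were seen. Basal and myoepithelial keratins, of which Krt5 had the highest mean over the 5 samples, summed to 337, 376 and 889 CPM in the castrated and 89.4 and 734 CPM in the intact samples, which overlapped. Of these 5 markers, 1 had an unadjusted p under 0.05, namely Krt15, with a log2 fold change of 2.39 (SE 0.65) and every castrated sample above both intact samples, while Krt5 had a log2 fold change of -0.35. Epithelial markers, of which Krt8 had the highest mean over the 5 samples, had a median of -0.25 and 0 of 6 at an unadjusted p under 0.05. The 4 proliferation markers were lower, each at an unadjusted p under 0.05, with a median of -1.95.

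**Figure D5:**
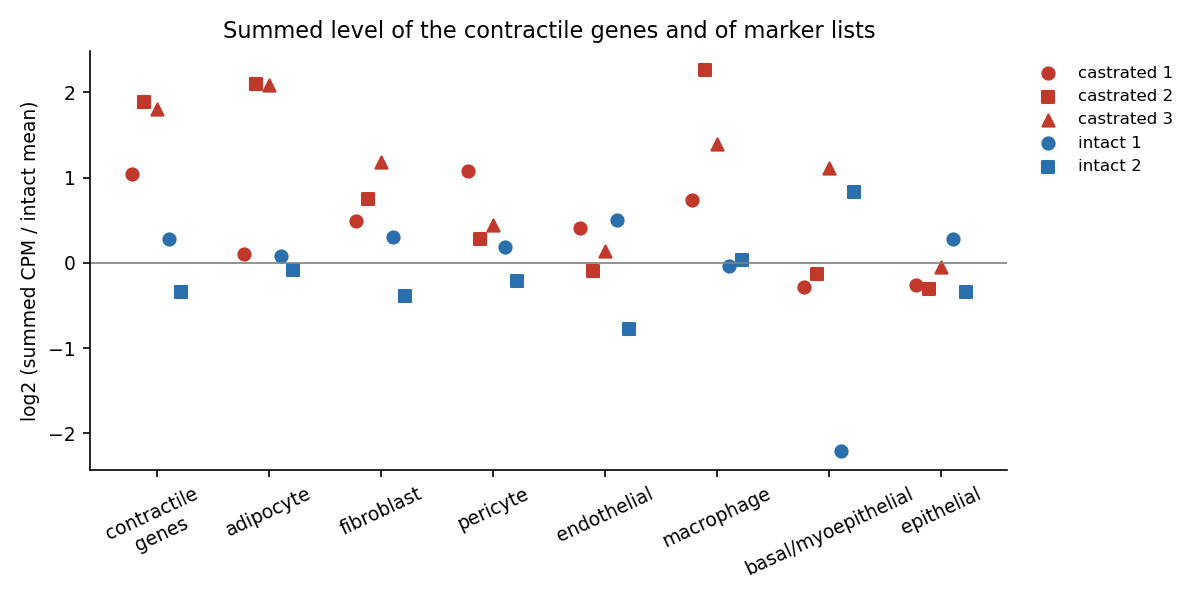
Summed normalized CPM of the contractile genes and of 7 marker lists in each sample, as log2 relative to the mean of the intact samples (0). In castrated replicate 1 the contractile genes lie at 1.04 and adipocyte markers at 0.11, against 1.89 and 2.10 in castrated replicate 2 and 1.81 and 2.09 in castrated replicate 3. The other lists lie in castrated replicate 1 at 1.08 (pericyte), 0.739 (macrophage), 0.494 (fibroblast), 0.41 (endothelial), -0.255 (epithelial) and -0.287 (basal and myoepithelial).

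Averaged over the 10 genes, the log2 level centred on the 5 samples was 0.17, 1.13 and 1.12 in castrated replicates 1 to 3, and -0.99 and -1.43 in intact replicates 1 and 2. The profile of Acta2 was closest to this mean among the 10, with a root mean square distance of 0.226, and those of Smtn, at 0.903, and Myh11, at 0.801, were the farthest. Outside the 10 genes, the 5 tested genes with the most similar profile over the 5 samples included Cdh4, Rasgrf2, Kif19a and Etv1, at distances from 0.0587 to 0.157. Cdh4, a cadherin gene, had 2.62, 5.95 and 5.51 CPM in the castrated and 0.851 and 0.465 CPM in the intact samples.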

How the data were processed

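Per the submitters' processing notes, reads were handled with Trimmomatic 0.39, STAR 2.7.9 and HTSeq 2.0.2 on mm10, after paired-end sequencing of ribosomal RNA-depleted total RNA. The deposited values are raw counts per gene without normalization, beside other deposited values, the gene length in kilobases, used only for TPM. Counts were tested although the methods name TPM as input. R 4.3.3, edgeR 4.0.16, limma 3.58.1 and DESeq2 1.42.0 were used. The main test was edgeR's quasi-likelihood F-test on TMM-normalized counts of genes passing a CPM of 1 in 2 or more samples, with Benjamini-Hochberg adjustment over all 14612 genes. Genes were called where the adjusted p was under 0.05 and the log2 fold change exceeded 1 in size. The SE is the log2 fold change over the root of F, and the 95% interval uses the fit's total degrees of freedom, residual plus prior. CPM values are TMM-normalized, and profiles used log2 CPM with a pseudocount of 0.5. The procedures were tested on simulated counts.

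All samples were separate animals, grouped by label. The 10 genes and all lists were chosen with earlier results of these data known. The named genes were the 10, the 3 of each list with the highest mean CPM over the 5 samples, and the 5 nearest profiles, of which some are not reported here. Gene coordinates are those of the deposited count table (mm10), counted from 1, and shared exonic bases are from the GENCODE M21 annotation. Replicate libraries were distinct (chi-square per gene of 116 or more). Alternatives were other tests, scalings and filters, a replicate block and leaving out each sample, with 1 of 15 added after seeing the data.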

Additional observations from a re-analysis of the deposited data

How the results depend on the processing

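The 10 genes kept a positive log2 fold change under every alternative run, apart from Smtn, which was -0.36 without intact replicate 2 and 1.09 without intact replicate 1. Over the samples left out in turn, the median log2 fold change of the 10 genes ran from 1.98 to 2.90 (2.90 without intact replicate 1), the number above every intact sample left in the fit from 9 to 10 (19.2% to 36.4% of all genes), and the number higher at an unadjusted p under 0.05 from 6 to 9 (4.42% to 12.2% of all genes). Where an intact sample was left out, the lone one was assumed to vary like the castrated samples. Myh11 was 3.02 without castrated replicate 3, 3.58 without intact replicate 2 and 2.75 with the replicate block, where Cnn1 was larger at 3.69, 3.99 and 3.46. Myocd ran from 1.38 without intact replicate 2 to 3.52 without intact replicate 1. Genes called numbered 0 in edgeR's quasi-likelihood test, 989 in DESeq2 and 369 in edgeR's likelihood ratio test, and 0 to 1 when a sample was left out. Of the 10 genes, 7 were called by DESeq2 and 6 by the likelihood ratio test. Of the 56 contraction genes tested, 14 were higher at an unadjusted p under 0.05, and 9 to 20 when a sample was left out, the lowest number without castrated replicate 3. With the replicate block this number was 7 (5.32% of all genes), the number among the 10 genes was 7 and their median was 1.95. Same-numbered samples are different animals, and their deviations correlated at 0.165 for replicate 1 and -0.04 for replicate 2. Of 150 values for single genes, 136 kept direction and side of the threshold, 13 passed it under DESeq2 or the likelihood ratio test and 1 reversed. The share of Acta2 among the 10 genes was on average 30.9% by TPM and 34.4% by CPM. With 2 intact samples of unlike prostate marker content, the intact spread is poorly known.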

Other observations

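Lists outside muscle gave a few further values. Of 3 markers of interstitial cells of Cajal, the pacemaker cells of visceral smooth muscle, Kit had 58.5, 68.4 and 65.0 CPM in castrated replicates 1 to 3, and 32.9 and 13.3 CPM in intact replicates 1 and 2, with a log2 fold change of 1.47 (SE 0.42). Ano1, a chloride channel of these cells and of epithelia, had a log2 fold change of 0.35, and the gap junction gene Gja1 one of -0.99, with 177 CPM in intact replicate 2 against 34.4 to 59.6 CPM in the other samples.

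Of 5 tested nerve and glia markers, 4 had a higher mean after castration and 1 an unadjusted p under 0.05 in edgeR's quasi-likelihood test, with a median log2 fold change of 1.36. S100b reached 26.1 CPM in castrated replicate 2 against 0.790 to 4.62 CPM in the other samples.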
